A study of Homo sapiens with 18 samples.

Results

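The genes described here are the 10 core components of the G1/S switch of the cell cycle: the D-type cyclins CCND1, CCND2 and CCND3, the kinases CDK4 and CDK6 that they activate, the retinoblastoma protein gene RB1, the cyclins CCNE1, CCNE2 and CCNA2, and their kinase CDK2. They were picked by gene symbol from the 17017 genes of the deposited table, and all 10 were present. The cells were MDA-MB-231, an established human line of triple-negative breast carcinoma. They were transduced with lentivirus that carried a hairpin RNA against the mRNA of fibrillarin (FBL, the methyltransferase that places 2'-O-methyl groups on ribosomal RNA) or a scramble control. The treatments are labelled SC, read here as the scramble, and SH2 and SH3, the hairpins. The labels do not say which of them is the first and which the second hairpin of the protocol. All groups, the control included, were kept in puromycin for 96 h and received 100 µg/ml cycloheximide for 5 min before lysis. Each treatment had 3 replicates of cytoplasmic input RNA (IN) and 3 of ribosome-protected footprints (RPF), 18 libraries in all. Nothing in the labels says that replicates came from separate cultures, so p-values measure the spread between these libraries, which may be technical.

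Progress from G1 into S phase is driven by cyclins, which have no activity of their own, and by the kinases they bind. D-type cyclins with CDK4 or CDK6 begin to phosphorylate the retinoblastoma protein, and cyclin E with CDK2 completes that step, which frees E2F transcription factors to induce genes of DNA synthesis, among them CCNE1, CCNE2 and CCNA2. Cyclin A with CDK2 then acts through S phase. Proteins of the CIP/KIP and INK4 families bind and restrain these kinases. D-type cyclin mRNAs are long known as mRNAs whose translation responds to growth signals.

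FBL itself was first read in every library as a check of the labels. In RNA, its level was 349 to 421 CPM (the count scaled to a library of fixed size) in SC, 1.26, 4.52 and 11.2 CPM in SH2 replicates 1 to 3, and 2.95 to 4.15 CPM in SH3. In footprints it was 269 to 296 CPM in SC, 4.43 to 30.1 in SH2 and 4.10 to 8.06 in SH3. The mean in SH2 was thus 1.46% of SC in RNA and 4.70% in footprints, and in SH3 it was 0.898% and 2.09%, with SH2 replicate 3 the highest of the knockdown libraries. IN libraries held 23469830 to 27629488 counts and RPF libraries 1662705 to 6098648, so footprint values rest on fewer reads. VIM and CD44, markers of this mesenchymal-like line, were at 4081 and 256 CPM or more in all RNA libraries, and CD44 RNA rose by 0.68 on the log2 scale in SH2. ESR1, PGR and CDH1 had at most 11 counts in any library. RNA of ERBB2 was at 79.2 to 104 CPM, and that of the epithelial marker KRT8 at 402 to 583 CPM. The leukocyte marker PTPRC was at 1.19 to 1.47 CPM in the SC RNA libraries and at 0.153 to 0.498 CPM in those of the hairpins, and its part in the results below was not tested.

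RefSeq (GRCh38.p14) promoter sequences were at hand for 6 of the 10 genes, with 9 transcription starts. The 4 shown, each the 250 bases before a start, belong to genes that behaved differently: CCNA2 and CCNE1, whose RNA was lower under both hairpins, CDK6, whose RNA was higher, and CDK4, which passed no test. Capitals mark the letters TGACGTCA (the cAMP response element), CCAAT or its complement ATTGG, and CACGTG (the E-box).
CCNA2, chr4:121823884-121824133, minus strand: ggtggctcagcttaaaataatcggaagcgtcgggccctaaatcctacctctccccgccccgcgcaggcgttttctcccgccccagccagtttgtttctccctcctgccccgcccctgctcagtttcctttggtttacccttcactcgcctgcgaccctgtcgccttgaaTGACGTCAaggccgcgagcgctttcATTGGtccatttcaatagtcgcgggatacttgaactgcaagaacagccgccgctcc
CCNE1, chr19:29811741-29811990, plus strand: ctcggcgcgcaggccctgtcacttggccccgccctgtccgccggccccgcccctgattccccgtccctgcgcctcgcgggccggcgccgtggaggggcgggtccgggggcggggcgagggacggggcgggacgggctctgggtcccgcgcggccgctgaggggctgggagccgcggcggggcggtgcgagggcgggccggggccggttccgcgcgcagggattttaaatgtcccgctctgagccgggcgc
CDK6, chr7:92836574-92836823, minus strand: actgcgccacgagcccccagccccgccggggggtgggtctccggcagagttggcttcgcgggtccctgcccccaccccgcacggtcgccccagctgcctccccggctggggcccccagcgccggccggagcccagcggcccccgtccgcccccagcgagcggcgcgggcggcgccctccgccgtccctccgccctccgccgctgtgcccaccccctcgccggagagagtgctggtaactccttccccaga
CDK4, chr12:57752311-57752560, minus strand: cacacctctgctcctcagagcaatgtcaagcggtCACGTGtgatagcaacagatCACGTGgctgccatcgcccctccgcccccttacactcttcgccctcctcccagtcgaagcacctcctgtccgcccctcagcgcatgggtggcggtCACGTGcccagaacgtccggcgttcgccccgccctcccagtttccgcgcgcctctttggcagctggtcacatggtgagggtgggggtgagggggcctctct

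Both strands were searched for 5 motifs. The CCNA2 promoter held TGACGTCA, whose first base lay 81 bases before the start, and ATTGG 56 bases before it. The letters TGACGTCA occurred in 1.65% of the 35116 promoters of this length in the table, and CCAAT or ATTGG in 32.0%. CDK4 carried 3 copies of CACGTG, at 216, 196 and 101 bases before its start, against 6.34% of promoters with at least 1 copy. Neither the CCNE1 window nor either CDK6 window contained any of the letters searched, which included the E2F site forms TTTCCCGC and TTTGGCGC, found in 1.39% and 0.55% of promoters. These are matches of letters and say nothing of which factor was bound.

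CCNE1, CCNE2, CCNA2 and CDK2 had less RNA under both hairpins against fibrillarin, and CDK6 had several times more. In SH2, the RNA of 8 genes differed from SC: CCND1, CCNE1, CCNE2, CCNA2, CDK2 and RB1 fell, and CDK6 and CCND3 rose. The same test called 61.4% of all 12710 genes tested (31.1% higher and 30.4% lower), so 8 of 10 is read against a background in which most genes changed. In SH3, 6 genes differed, against 53.0% of all genes (27.8% higher and 25.2% lower): CCND2, CCNE1, CCNE2, CCNA2 and CDK2 fell, and CDK6 rose. The median log2 change of the 10 genes was -0.55 in SH2 and -0.43 in SH3, beside 0.01 and 0.03 over all genes tested. All comparisons were made with edgeR's quasi-likelihood test, and a gene is called here when its Benjamini-Hochberg adjusted p over all genes is under 0.05. In ribosome footprints of SH2, CDK6 rose and CCND1, CCNE2, CCNA2 and CDK2 fell, 5 genes in all, against 44.2% of 10345 genes tested (21.0% higher and 23.2% lower). In footprints of SH3, CDK6 rose and CCNE2, CCNA2 and CDK2 fell, 4 genes against 35.9% (16.9% higher and 19.0% lower). The median footprint changes of the 10 genes were -0.14 and -0.34, beside -0.0042 and -0.014 over all genes tested. All 10 genes passed the filter on low counts in every fit. The SC libraries served both comparisons, and whatever is particular to them enters the changes of either hairpin. In whole cultures, a different share of cells in a cell cycle phase and a different amount of RNA per cell cannot be told apart.

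**Figure D1:**
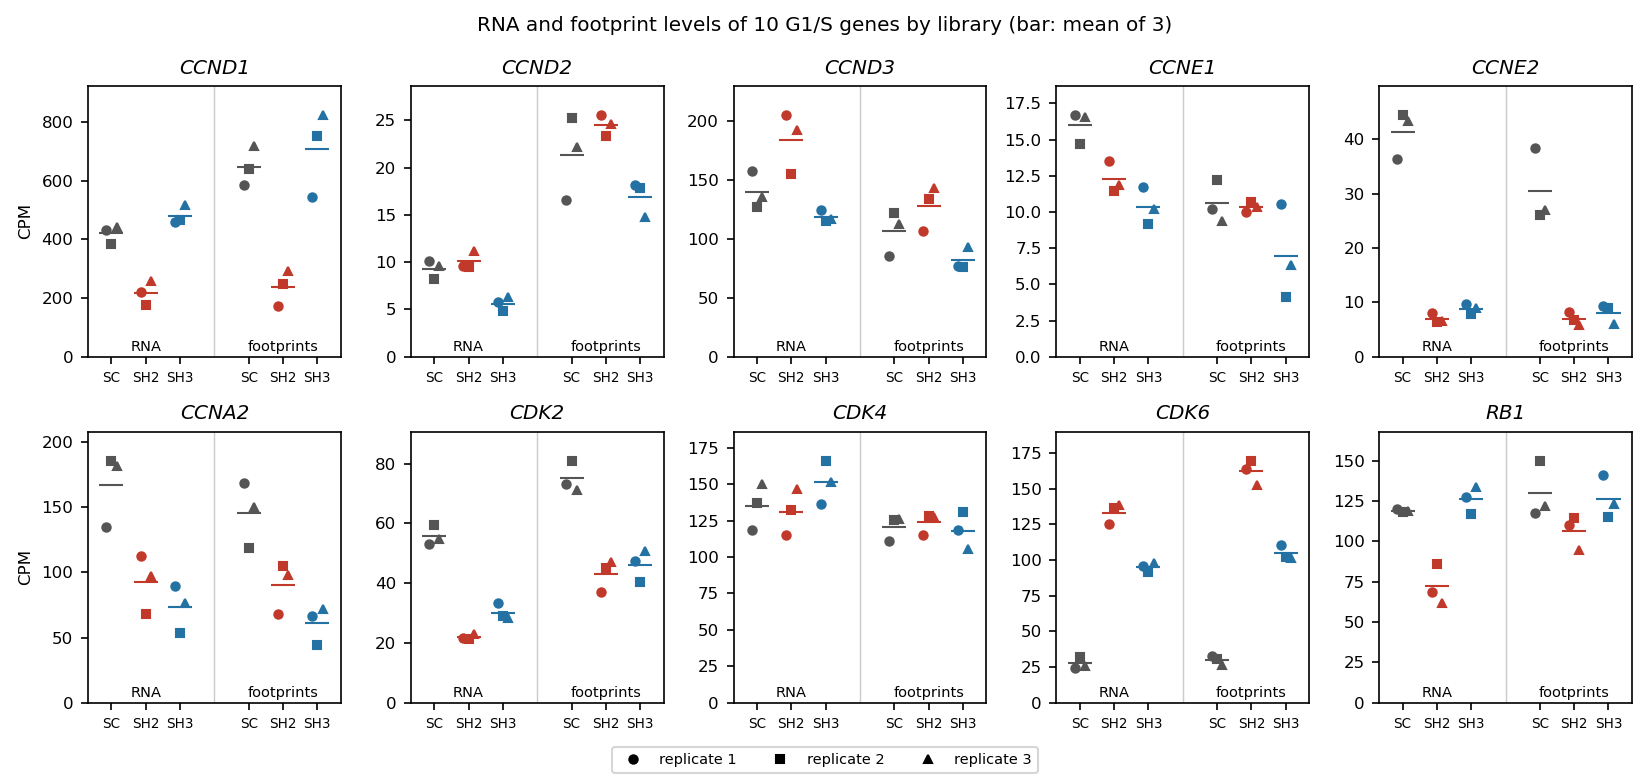
RNA (left in each panel) and footprint (right) levels of the 10 genes in CPM, for scramble SC (grey), SH2 (red) and SH3 (blue). Symbols are the 3 replicates and bars their means. CDK6 lay at 24.6 to 32.4 CPM of RNA in SC and at 91.7 CPM or more in every hairpin library, the RNA of CCNE2 lay at 36.3 CPM or more in SC and at 9.72 CPM or less in the hairpin libraries, and CDK4 overlapped between all groups.

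Among the D-type cyclins, which link growth signals to the cycle, each of the 3 genes had a pattern of its own. CCND1, the most studied of them in breast cancer, had RNA levels of 433, 385 and 442 CPM in SC replicates 1 to 3, 219, 176 and 259 CPM in SH2, and 459.7, 464 and 517 CPM in SH3. Its footprints were at 585, 639 and 719.5 CPM in SC, 173, 247 and 292 CPM in SH2, and 546, 752 and 823 CPM in SH3. All SH2 libraries lay below all SC and SH3 libraries in both kinds of data, whereas SC and SH3 overlapped in footprints and SH3 lay just above SC in RNA. The log2 change of CCND1 in SH2 was -0.95 (SE 0.126, edgeR adjusted p = 2.06e-05) in RNA and -1.45 (SE 0.188, edgeR adjusted p = 2.2e-05) in footprints. In SH3 the changes were 0.19 and 0.13 and passed neither test, with 95% intervals of -0.07 to 0.46 and -0.26 to 0.52.

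CCND2, a second D-type cyclin, was the scarcest of the 3 in read counts, with 115 to 315 reads per RNA library and 31 to 125 per footprint library. Its RNA was at 8.24 to 10.1 CPM in SC, 9.44 to 11.2 CPM in SH2 and 4.82 to 6.28 CPM in SH3, where every library lay below the rest. The RNA fell by 0.73 on the log2 scale in SH3 (SE 0.152, edgeR adjusted p = 0.00119) and was 0.11 higher in SH2, which did not pass. Footprints of CCND2 were 16.6, 25.3 and 22.2 CPM in SC, 25.6, 23.3 and 24.6 CPM in SH2, and 18.1, 17.8 and 14.7 CPM in SH3. SC overlapped both hairpins, while every SH3 library lay below every SH2 library, and the footprint log2 changes against SC of 0.22 and -0.32 passed no test.

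CCND3, the third D-type cyclin, went the other way from CCND1 in SH2. Its RNA was at 157, 127 and 136 CPM in SC, 205, 155 and 192 CPM in SH2, and 125, 115 and 117 CPM in SH3. The SH2 and SC ranges touched, with the lowest SH2 library just under the highest SC library, and SH3 lay below both. CCND3 RNA rose in SH2 by 0.39 on the log2 scale (SE 0.113, edgeR adjusted p = 0.00787). In SH3 its log2 change was -0.24 in RNA and -0.37 in footprints, with adjusted p of 0.0937 and 0.0951 in edgeR, and its footprint change in SH2 was 0.27, not called.

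The ratio of 2 genes within a library does not depend on how libraries are scaled. The log2 ratio of CCND1 to CCND3 RNA counts had a mean of 1.59 ± 0.121 in SC, compared with 0.24 ± 0.174 under SH2 and 2.01 ± 0.129 under SH3 (mean ± SD of 3 replicates). In footprints it was 2.61 ± 0.202, 0.87 ± 0.168 and 3.09 ± 0.248 in the same order. The balance of these D-type cyclins thus lay lower than SC in every SH2 library and higher than SC in every SH3 library, in both kinds of data.

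The kinases that partner D-type cyclins differed from each other. CDK6 had RNA levels of 24.6, 32.4 and 25.5 CPM in SC, 125, 136 and 139 CPM in SH2, and 95.6, 91.7 and 97.7 CPM in SH3. Its footprints were at 33.0, 30.8 and 26.3 CPM in SC, 164, 169 and 153 CPM in SH2, and 111, 102 and 101 CPM in SH3. No group overlapped another in either kind of data, and SH2 was the highest in both. CDK6 RNA was 4.85-fold higher in SH2 (log2 2.28, SE 0.113, edgeR adjusted p = 1.37e-08), while SH3 was 3.46-fold higher (log2 1.79, SE 0.111, edgeR adjusted p = 1.01e-07). Footprints on CDK6 were 5.41-fold higher in SH2 (log2 2.44, SE 0.143, edgeR adjusted p = 2.77e-08) and 3.49-fold higher in SH3 (log2 1.80, SE 0.144, edgeR adjusted p = 6.57e-07).

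CDK4, the close relative of CDK6 that phosphorylates the same protein, had overlapping values in all groups. Its RNA ranged from 118 to 149.96 CPM in SC, 115 to 146 CPM in SH2 and 136 to 166 CPM in SH3, and its footprints from 105 to 131 CPM over all 9 libraries. The log2 change of CDK4 RNA was -0.04 in SH2 and 0.16 in SH3, with 95% intervals of -0.29 to 0.21 and -0.09 to 0.41. In footprints the changes were 0.04 and -0.03, with intervals of -0.25 to 0.32 and -0.32 to 0.26. A change in CDK4 of the size seen for CDK6 lies outside these intervals.

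The log2 ratio of CDK6 to CDK4 counts within a library was -2.30 ± 0.238 in SC RNA, compared with 0.03 ± 0.101 under SH2 and -0.67 ± 0.175 under SH3 (mean ± SD of 3 replicates). In footprints it was -2.01 ± 0.256, 0.39 ± 0.125 and -0.17 ± 0.164 in the same order. The counts of CDK6 were thus near those of CDK4 in the SH2 libraries, though counts of different genes also depend on transcript length, which was not used here.

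**Figure D2:**
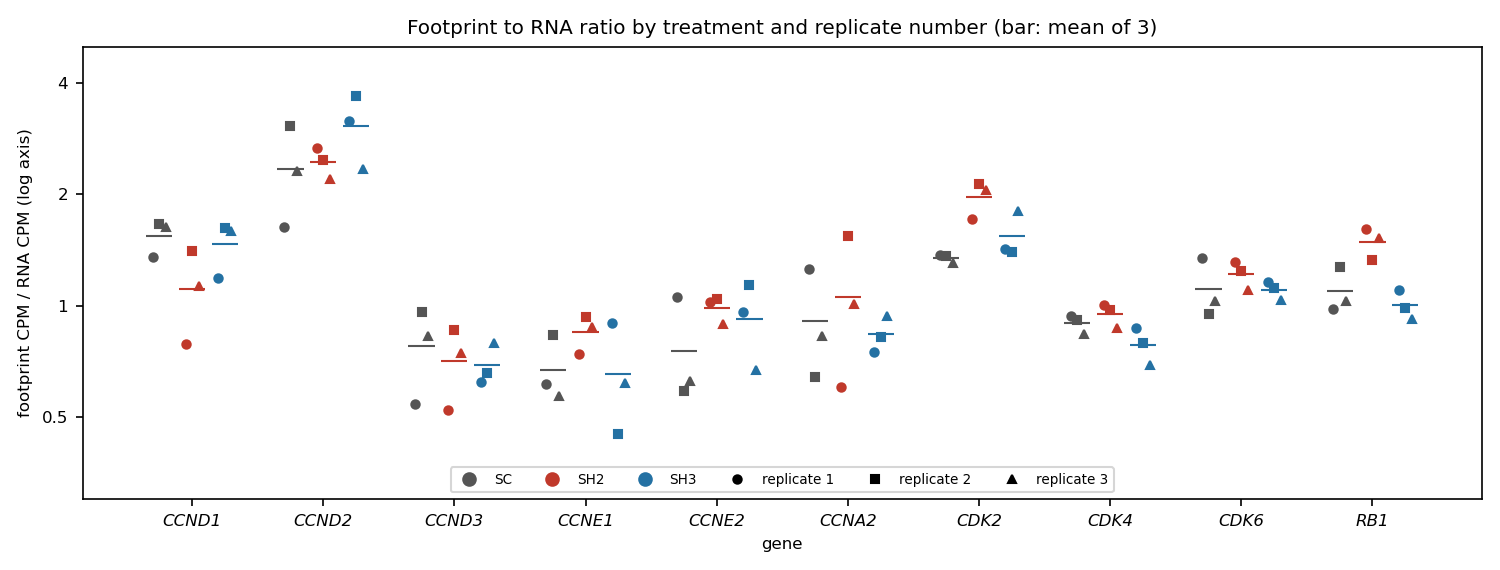
Ratio of footprint CPM to RNA CPM of the 10 genes, with IN and RPF libraries matched by replicate number (log axis), for SC, SH2 and SH3. This matching is doubtful for replicates 1 and 2 of SC and SH2, whose IN and RPF libraries deviated oppositely (r = -0.49 to -0.30). CDK2 lay at 1.30 to 1.37 in SC and 1.72 to 2.13 in SH2, and the groups of most other genes overlapped.

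RB1 encodes the pocket protein that the cyclin-kinase pairs inactivate. Its RNA was at 120.1, 118 and 119 CPM in SC, 68.5, 86.0 and 61.9 CPM in SH2, and 128, 117 and 134 CPM in SH3. Every SH2 library lay below every other, while SC and SH3 overlapped. RB1 RNA fell in SH2 by 0.72 on the log2 scale (SE 0.114, edgeR adjusted p = 9.14e-05) and its log2 change in SH3 was 0.09 (adjusted p = 0.545 in edgeR). Footprints on RB1 were at 118, 149.98 and 122 CPM in SC, 110.3, 114 and 94.5 CPM in SH2, and 141, 115 and 123 CPM in SH3. Their log2 change of -0.28 in SH2 did not pass (edgeR adjusted p = 0.126), nor did that of -0.04 in SH3.

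Of the cyclins that activate CDK2, CCNE2 was lower by the most. Cyclin E2 RNA was at 36.3, 44.4 and 43.2 CPM in SC, 7.96, 6.47 and 6.54 CPM in SH2, and 9.72, 7.84 and 8.89 CPM in SH3. Its footprints were at 38.3, 26.1 and 27.0 CPM in SC, 8.15, 6.76 and 5.83 CPM in SH2, and 9.37, 8.90 and 5.96 CPM in SH3, where each hairpin library held only 16 to 29 reads. All hairpin libraries lay below all SC libraries in both kinds of data. CCNE2 RNA fell to 0.169 times its SC level in SH2 (log2 -2.56, SE 0.137, edgeR adjusted p = 1.39e-08) and to 0.214 times in SH3 (log2 -2.23, SE 0.134, edgeR adjusted p = 8.16e-08). Footprints on CCNE2 fell to 0.224 times (log2 -2.16, SE 0.242, edgeR adjusted p = 6.35e-06) and 0.259 times (log2 -1.95, SE 0.249, edgeR adjusted p = 3.6e-05).

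CCNE1, the other E-type cyclin, had smaller changes at low counts. Its RNA was at 16.7, 14.7 and 16.6 CPM in SC, 13.5, 11.5 and 11.8 CPM in SH2, and 11.7, 9.15 and 10.2 CPM in SH3, so all hairpin libraries lay below all SC libraries. The log2 change of CCNE1 RNA under SH2 was -0.38 (SE 0.13, edgeR adjusted p = 0.0203) and that under SH3 was -0.62 (SE 0.132, edgeR adjusted p = 0.00125). The SH2 call for CCNE1 was lost without SC replicate 3 (edgeR adjusted p = 0.0684), without SH2 replicate 2 (0.0554) and with plain library totals as the scale (0.0712). Footprints on CCNE1 rested on 12 to 63 reads per library and passed no test, with log2 changes of -0.01 in SH2 and -0.66 in SH3. Without SH3 replicate 1, whose 10.5 CPM stood above the 4.11 and 6.31 CPM of the other two, the SH3 footprint change was -0.99 and was called (edgeR adjusted p = 0.0249).

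The within-library log2 ratio of CCNE2 to CCNE1 counts was 1.37 ± 0.237 in SC RNA, compared with -0.82 ± 0.046 under SH2 and -0.23 ± 0.035 under SH3 (mean ± SD of 3 replicates). In footprints it was 1.51 ± 0.405, -0.60 ± 0.274 and 0.29 ± 0.718 in the same order, so that the E-type cyclins changed unequally, with SH3 footprints the most spread.

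CCNA2, the S-phase cyclin, had RNA levels of 135, 186 and 182 CPM in SC, 113, 68.1 and 97.2 CPM in SH2, and 89.3, 53.7 and 76.6 CPM in SH3. Its footprints were at 169, 119 and 150.2 CPM in SC, 68.1, 105 and 98.1 CPM in SH2, and 66.7, 44.2 and 71.9 CPM in SH3. All hairpin libraries lay below all SC libraries, and replicates within a group spread widely. In SH2, CCNA2 RNA fell by 0.85 on the log2 scale (SE 0.196, edgeR adjusted p = 0.00177) and footprints by 0.69 (SE 0.196, adjusted p = 0.00937). In SH3, RNA fell by 1.19 (SE 0.197, edgeR adjusted p = 0.000202) and footprints by 1.27 (SE 0.204, adjusted p = 0.000229). When SH2 replicate 1 was left out, the SH2 footprint change was -0.52 and no longer called (edgeR adjusted p = 0.0563).

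CDK2, the kinase of cyclins E and A, fell under both hairpins. Its RNA was at 53.2, 59.5 and 54.7 CPM in SC, 21.5, 21.3 and 22.9 CPM in SH2, and 33.2, 28.9 and 28.2 CPM in SH3. No group overlapped another, and SH2 was the lowest. Its footprints were at 73.1, 80.9 and 71.2 CPM in SC, 37.0, 45.2 and 46.9 CPM in SH2, and 47.4, 40.4 and 50.8 CPM in SH3, where the hairpins overlapped. CDK2 RNA fell to 0.392 times its SC level in SH2 (log2 -1.35, SE 0.102, edgeR adjusted p = 1.65e-07) and to 0.54 times in SH3 (log2 -0.89, SE 0.101, edgeR adjusted p = 8.98e-06). Footprints on CDK2 fell to 0.578 times (log2 -0.79, SE 0.152, edgeR adjusted p = 0.000636) and 0.617 times (log2 -0.70, SE 0.155, edgeR adjusted p = 0.0026).

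Translational efficiency, the change in footprints relative to the change in RNA, was tested as an interaction over all 18 libraries. None of the 10 genes was called in SH2, in SH3 or between the hairpins by edgeR, against 3.90%, 0.686% and 0.0160% of 12531 genes. At an unadjusted p under 0.05, 3 of the 10 passed in SH2 (CCND1, CDK2 and RB1), 0 in SH3 and 1 between the hairpins (RB1), while 17.9%, 12.6% and 11.7% of all genes did. DESeq2's Wald test called 1 of the 10 in SH2, CDK2, and 0 in the other comparisons, beside 910, 349 and 219 calls over all genes. The counts of 0 therefore do not show that ribosome loading was equal, and the intervals below give the size of change that these libraries leave possible.

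Ratios of footprint to RNA CPM are given for IN and RPF libraries of the same treatment and number. The protocol takes both from a lysate, but the labels do not say that a number marks one, so another matching would give other ratios. IN and RPF of replicates 1 and 2 deviated oppositely in SC (r = -0.49 and -0.46) and SH2 (-0.30 and -0.31). Those of replicate 3 (0.26 in SC, 0.50 in SH2) and of all SH3 replicates (0.21 to 0.42) deviated together. The matching of replicates 1 and 2 in SC and SH2 is thus doubtful, and a crossed matching was not tested. The ratio of CDK2 footprint CPM to RNA CPM was 1.37, 1.36 and 1.30 in SC, 1.72, 2.13 and 2.05 in SH2, and 1.43, 1.40 and 1.80 in SH3. In this matching every SH2 value lay above every SC value. The log2 efficiency change in SH2 was 0.55 (SE 0.168, 95% interval 0.20 to 0.90, edgeR adjusted p = 0.0706), and DESeq2 gave 0.56 with an adjusted p of 0.0133. With footprint libraries thinned once at random to the depth of the shallowest, the change in CDK2 was 0.75 and was called (edgeR adjusted p = 0.0416). The other 12 of the 14 alternatives did not call it. Over all 14 the change ran from 0.47 to 0.75, with adjusted p from 0.0133 to 0.212 (edgeR or DESeq2). RNA of CDK2 had fallen more than its footprints.

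The ratio for RB1 was 0.982, 1.27 and 1.03 in SC, 1.61, 1.33 and 1.53 in SH2, and 1.11, 0.983 and 0.919 in SH3. Its log2 efficiency change in SH2 was 0.44 (SE 0.176, edgeR adjusted p = 0.184), and between SH2 and SH3 it was 0.55 (SE 0.178, edgeR adjusted p = 0.213). CCND1 had ratios of 1.35, 1.66 and 1.63 in SC, 0.79, 1.41 and 1.13 in SH2, and 1.19, 1.62 and 1.59 in SH3. In this matching those groups overlapped, which another matching could alter. The CCND1 efficiency change in SH2 was -0.51 (SE 0.241, edgeR adjusted p = 0.269). For CDK6, the gene with the largest increases, the efficiency change was 0.15 in SH2 and 0.02 in SH3, with 95% intervals of -0.20 to 0.50 and -0.33 to 0.38. For CCNE2 it was 0.38 and 0.27, with intervals of -0.20 to 0.96 and -0.32 to 0.87.

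**Figure D3:**
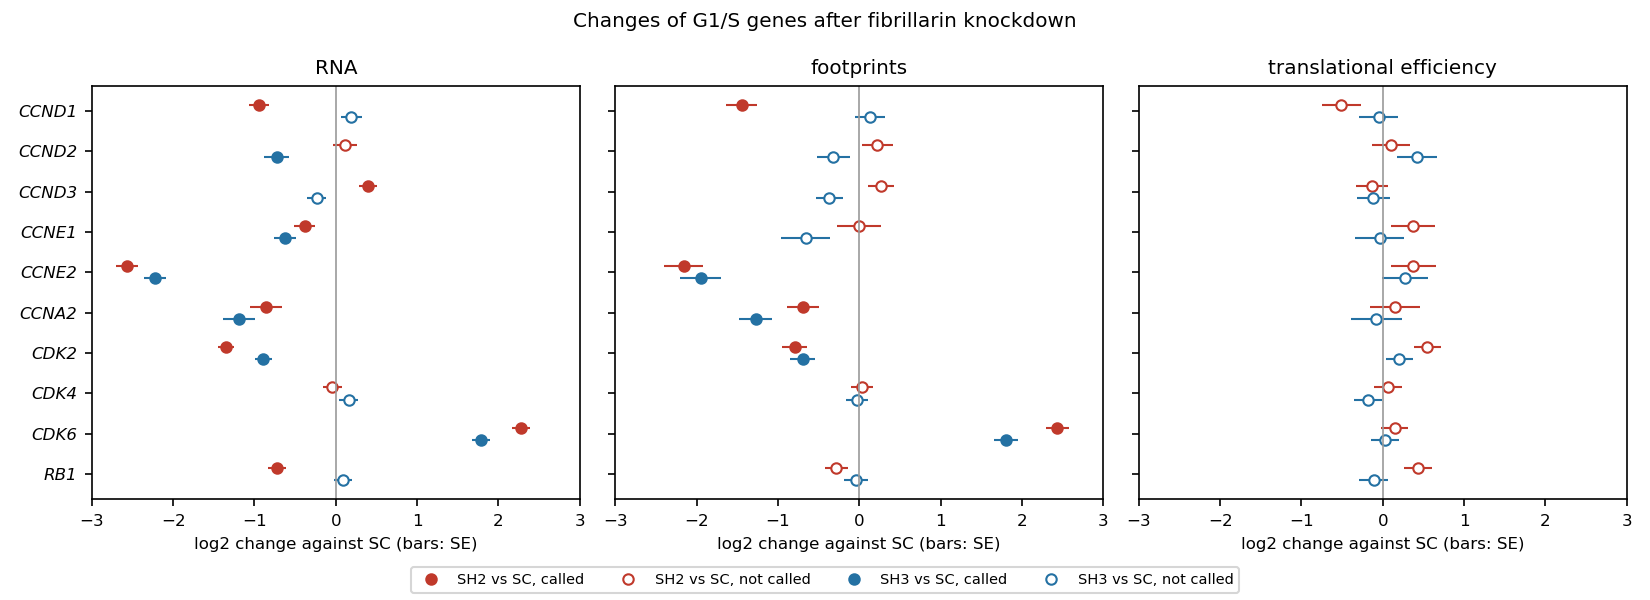
Log2 change against SC (x axis, bars are SE) of the 10 genes in RNA, footprints and translational efficiency, for SH2 (red) and SH3 (blue). Filled points passed edgeR's test at an adjusted p under 0.05. RNA and footprint points of CDK6 lie between 1.79 and 2.44, those of CCNE2 between -2.56 and -1.95, and no efficiency point is filled.

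The hairpins were compared with each other directly. In RNA, 6 of the 10 genes differed between SH2 and SH3, against 39.3% of all genes (18.9% higher and 20.4% lower in SH2): CCND1 (log2 SH2 minus SH3 of -1.14), RB1 (-0.81) and CDK2 (-0.46) were lower in SH2, and CCND2 (0.84), CCND3 (0.63) and CDK6 (0.49) were higher. In footprints, 3 genes differed, against 23.8% of all genes (12.1% higher and 11.6% lower in SH2): CCND1 (-1.57), CCND3 (0.64) and CDK6 (0.63). The CCND3 footprint difference was lost without SH2 replicate 3 (edgeR adjusted p = 0.0535) and without SH3 replicate 2 (0.0629). CCNE1, CCNE2, CCNA2 and CDK4 passed in neither, and the call depended on the setting for all of these but CDK4. For CCNE2, RNA differed by -0.34 (95% interval -0.63 to -0.04, edgeR adjusted p = 0.0693), and for CCNA2, footprints differed by 0.58 (95% interval 0.14 to 1.02, edgeR adjusted p = 0.0511). The CCNA2 footprint difference was called in 6 of 13 alternatives, with adjusted p from 0.00815 to 0.244 over all of them (edgeR or DESeq2), among them without SH2 replicate 1 (0.75) and without SH3 replicate 3 (0.73). A difference was also called for CCNA2 RNA without SH2 replicate 2 (0.55), for CCNE1 footprints without SH3 replicate 1 (0.99) and for CCNE2 RNA without SH2 replicate 1 (-0.44).

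The kinase inhibitors CDKN1A (p21) and CDKN1B (p27), which bind CDK2 complexes, behaved differently from each other. CDKN1A RNA was at 36.6 to 52.3 CPM in SC, 111 to 133 CPM in SH2 and 26.3 to 29.3 CPM in SH3. It rose in SH2 (log2 1.48, SE 0.125, edgeR adjusted p = 4.05e-07) and fell in SH3 (log2 -0.64, SE 0.126, edgeR adjusted p = 0.000771), and its footprints rose by 1.08 and fell by 0.63. The hairpins differed by 2.11 in RNA (edgeR adjusted p = 8.93e-08) and by 1.71 in footprints (4.94e-06). CDKN1B RNA was at 14.1 to 16.6 CPM in SC, 44.3 to 46.7 CPM in SH2 and 38.7 to 43.3 CPM in SH3. It rose by 1.57 and 1.41 in RNA (edgeR adjusted p = 4.2e-08 and 2.67e-07) and by 1.17 and 1.69 in footprints (1.46e-05 and 1.38e-06), with every hairpin library above every SC library.

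Of the 7 genes in the kinase inhibitor list, 5 could be tested. In RNA, 3 rose and 1 fell in SH2, and 2 rose and 3 fell in SH3. Over all genes, 31.1% rose and 30.4% fell in SH2 RNA, and 27.8% and 25.2% in SH3 RNA. In footprints the counts were 3 and 0 in SH2, and 2 and 2 in SH3, against 21.0% and 23.2% of all genes in SH2 and 16.9% and 19.0% in SH3. Median log2 changes of the list were 1.48 and -0.64 in RNA and 1.08 and 0.37 in footprints. CDKN1C (p57) rose beside CDKN1B in both hairpins, by 1.69 and 1.58 in RNA and 1.27 and 1.15 in footprints. The INK4 gene CDKN2C (p18), a restrainer of CDK4 and CDK6, fell in RNA by 0.86 and 1.34, and its footprint changes of -0.33 and 0.37 were not called. Its efficiency in SH3 was 1.70 higher (edgeR adjusted p = 0.0349), a call lost in 7 of 13 alternatives, among them the omission of SC replicate 2 (0.0635), of SC replicate 3 (0.142) or of any SH3 replicate. CDKN2A (p16) had 0 counts in all RNA libraries and 0 to 2 in footprint libraries.

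Relatives of RB1 and the E2F and DP factors, which the pocket proteins bind, mostly fell. Of 12 genes, 10 fell and 2 rose in SH2 RNA, and 8 fell and 3 rose in SH3, with median log2 changes of -0.65 and -0.60. The shares of all genes that fell were 30.4% and 25.2%, and those that rose 31.1% and 27.8%. In footprints 9 fell and 0 rose in SH2, and 6 fell and 2 rose in SH3, with medians of -0.59 and -0.87, against 23.2% and 19.0% of all genes that fell and 21.0% and 16.9% that rose. RBL2 (p130) fell by 1.33 and 0.84 in RNA and by 1.37 and 1.01 in footprints. TFDP1, the DP partner of E2F factors, fell as well, with log2 changes of -0.68 and -0.89 in RNA and -1.54 and -1.83 in footprints. The efficiency of TFDP1 was lower in SH2 by 0.88 (edgeR adjusted p = 0.0388), a call lost in 8 of 14 alternatives, among them without SC replicate 1 (change -0.56), SC replicate 3 or any SH2 replicate. Its SH3 efficiency change was -0.94 and not called (edgeR adjusted p = 0.0783). E2F2 RNA fell by 1.56 and 1.80, E2F8 RNA by 1.63 and 1.54, and E2F8 footprints by 1.23 and 1.32, the former lost with footprint counts thinned to one depth (-0.82). E2F1 footprints fell by 2.02 and 1.02, the latter lost without SC replicate 1. Their levels were low, at 7.58 to 10.2 CPM in SC, 1.85 to 2.59 CPM in SH2 and 3.51 to 4.79 CPM in SH3.

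Of the 14 genes for kinase activation and cyclin turnover, 3 rose and 4 fell in SH2 RNA, and 2 rose and 6 fell in SH3. These 7 and 8 called genes stand against 61.4% and 53.0% of all genes, so their share was near the background. In footprints 1 rose and 5 fell, and 1 rose and 4 fell, against 44.2% and 35.9% of all genes called. The list's median log2 changes were 0.012 and -0.080 in RNA and -0.26 and -0.13 in footprints. CKS1B, a kinase-binding subunit needed for the removal of p27, fell, with log2 changes of -1.20 and -0.97 in RNA and -1.30 and -1.26 in footprints. FBXO5 (EMI1), an inhibitor of the anaphase-promoting complex, fell by 1.42 and 0.87 in RNA and by 1.49 and 1.37 in footprints. RNA of WEE1, a kinase that inhibits CDK1 and CDK2, fell by 1.51 and 0.58, while RNA of CDC25B, a phosphatase that reverses it, rose by 0.75 and 0.88.

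The 13 E2F target genes of S phase entry fell in RNA in all 13 cases in SH2 and in 10 in SH3, and none rose, against 30.4% and 25.2% of all genes called lower. In footprints 12 and 8 fell, against 23.2% and 19.0%. Median log2 changes were -1.11 and -0.84 in RNA and -0.99 and -0.59 in footprints. RRM2, a subunit of ribonucleotide reductase, fell, with log2 changes of -2.25 and -2.26 in RNA and -1.82 and -2.09 in footprints. TYMS, which makes thymidylate, fell by 1.64 and 1.99 in RNA and by 1.37 and 1.89 in footprints. TK1, which phosphorylates thymidine, had changes of -1.41 and -1.50 in RNA and -1.20 and -1.36 in footprints, all called. RNA of ORC1, a subunit of the origin recognition complex, fell by 1.24 and 0.95, and footprints of PCNA, the sliding clamp of DNA polymerase, fell by 0.99 and 0.94. All 4 of the G2/M genes fell in both hairpins and both kinds of data, against the same shares of all genes. RNA changes were -1.75 and -1.83 for CCNB2, -1.80 and -1.62 for CDK1, -1.15 and -1.34 for CCNB1, and -0.73 and -0.78 for CCNF. Their footprint changes ran from -0.64 to -1.58, and the calls of CCNF were lost in SH2 without SC replicate 3 (-0.54) or SH2 replicate 1 (-0.43), and in SH3 without SH3 replicate 2 (-0.73). The efficiency test called 0 genes of the turnover, E2F target and G2/M lists.

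**Figure D4:**
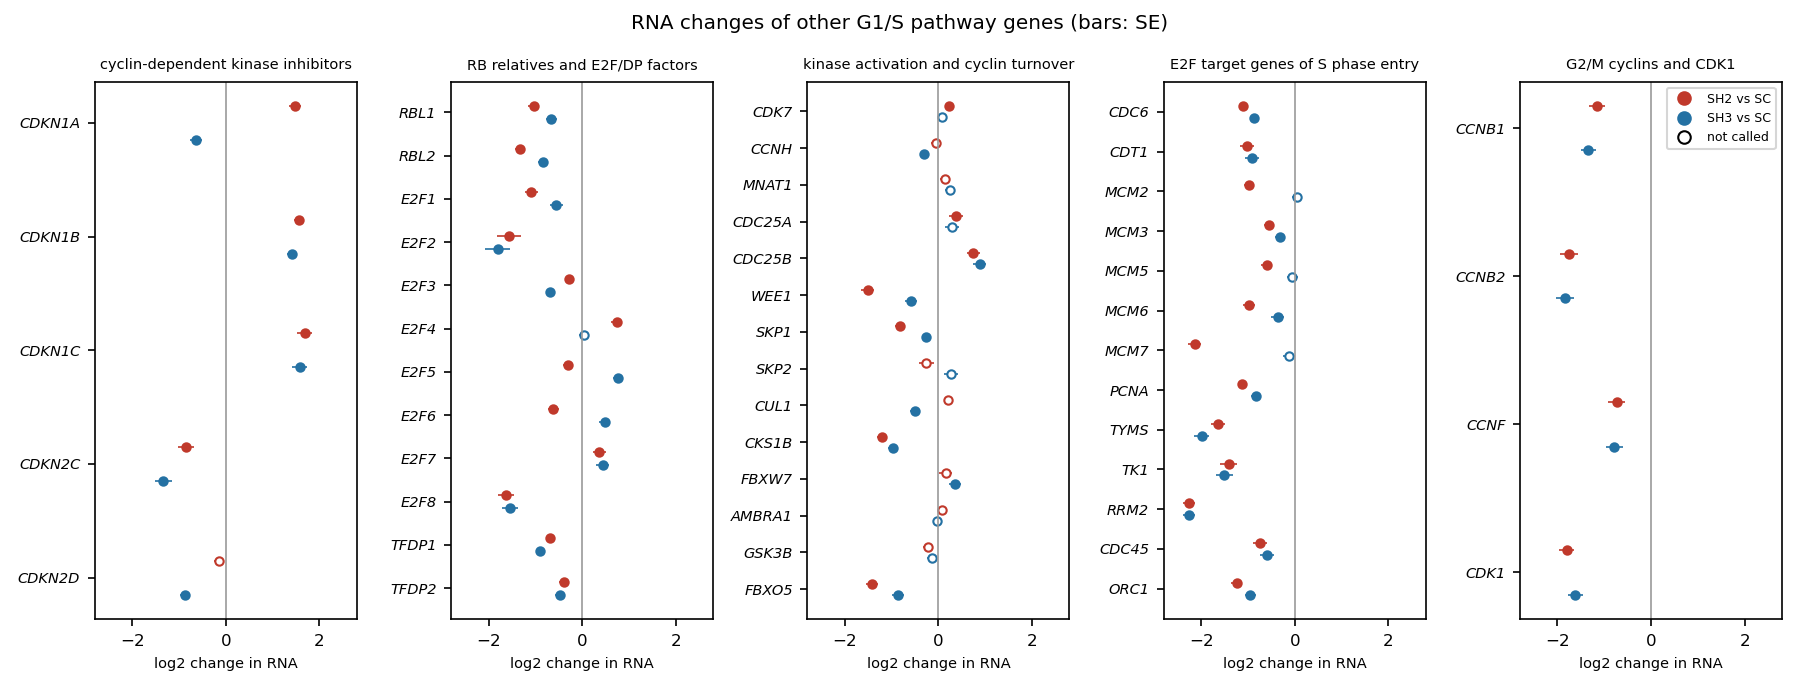
Log2 RNA change against SC in SH2 and SH3 for the genes of the 5 surrounding lists, each point a gene and filled points called by edgeR. The E2F target and G2/M genes lie left of the vertical zero line apart from MCM2 in SH3 (0.04), and the kinase inhibitors lie on both sides.

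The gene whose log2 CPM followed each of the 10 most closely over the 18 libraries, after centring within library kind, was found among 10335 genes tested in RNA and footprints. These values describe libraries that share treatments, so they are given without a p. For CDK6 it was CLU (Pearson r = 0.99), for CCNE2 UBE2T (0.98), for CDK2 BRIP1 (0.98), for CCND1 MCM2 (0.97), for CCNA2 KIF20A (0.97) and for RB1 CSE1L (0.96). For CCND3 it was CYBA (0.95), for CCNE1 MPC2 (0.94), for CCND2 CBFB (0.91) and for CDK4 PRPF4 (0.75). Within the 10 genes, the closest pair was CCNE2 and CDK2 (r = 0.93), and CDK4 and CDK6 had no member closer than RB1 (0.21) and CCND3 (0.18).

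In RefSeq, CCNE2 overlaps INTS8 and NDUFAF6, CCNA2 overlaps EXOSC9, CDK4 overlaps TSPAN31 and RB1 overlaps LPAR6, all present in the table. CDK6 and CCND2 overlap antisense genes that the table does not list. These are overlaps of whole gene spans, introns included, and overlap of exons was not examined. Whether the counting used strand is not given in the sources used here. Reads from a shared stretch of exon could thus be counted for the wrong gene, and how far these levels are affected is not known.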

How the data were processed

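Cytoplasmic RNA (IN) and ribosome footprints (RPF) of 3 treatments were read from 1 table of the whole series with 17017 gene symbols. Its raw counts per gene and library were deposited by the authors and are the values analysed. Per the submitters' processing notes, Bowtie 1.2.2 and DESeq2 were used. It also holds normalized signal columns, log2 changes and p-values, which are the authors' DESeq2 output per the file headers and served only for comparison with the calls made here. Counting tool, annotation, genome build and strand are not given in the sources used here. The labelling of the table carries the numbers 26 and 30, which are not explained there.

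Counts were fitted in edgeR 4.0.16 (R 4.3.3) with filterByExpr, TMM scaling and the two-sided quasi-likelihood test: 9 IN libraries for RNA, 9 RPF libraries for footprints and all 18 for the interaction that tests translational efficiency. P-values were adjusted by Benjamini-Hochberg over all genes tested. SE is the absolute log2 change over the square root of F, and intervals are 95%. CPM are scaled by TMM within a library kind. The biological coefficient of variation was 11.6% in RNA and 15.1% in footprints. No replicates agreed within counting noise (chi-square per degree of freedom 3.55 to 58.7). Scripts were tested on simulated data.

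The genes and lists were chosen with earlier results of these data known. From each list and measure, up to 4 genes called in both hairpins in 1 direction with the largest smaller change were named, otherwise up to 2 called in 1 hairpin. A gene of the E2F target list is not reported here. CDKN1A, CDKN1B and the gene most correlated with each member were always named. Alternatives were DESeq2 1.42.0 (scaling and Wald test), no filter, other sample sets, thinned footprints, omission of each replicate and replicate blocks. Plain library totals, and a block for SH2 and SC alone, were added after seeing the data.

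Same-numbered SC and SH2 libraries deviated together (r = 0.358 to 0.399 in IN, 0.248 to 0.297 in RPF), so their numbers were taken to pair them from the data, not from the labels. The main fits had no replicate block and do not use this pairing, which entered only the block alternatives. Same-numbered pairs with SH3 went down to r = -0.146, and IN with RPF of the same number ran from -0.49 to 0.503.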

Additional observations from a re-analysis of the deposited data

Results flagged for a closer look

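By a direct test of SH2 against SH3, 6 of the genes differed in RNA, where 39.3% of all genes tested did. Of these, 3 also differed in footprints, where 23.8% of all genes tested did. In RNA the log2 differences, SH2 minus SH3, were -1.14 for CCND1, 0.84 for CCND2, 0.63 for CCND3, -0.46 for CDK2, 0.49 for CDK6 and -0.81 for RB1. In footprints they were -1.57 for CCND1, 0.64 for CCND3 and 0.63 for CDK6. CDK2 and CDK6 moved the same way under both hairpins and differed in size. In RNA against SC, CCND1, CCND3 and RB1 passed the test in SH2 and not in SH3, and CCND2 passed it in SH3 and not in SH2. FBL was at 1.26 to 11.2 CPM of RNA in SH2 and 2.95 to 4.15 in SH3, and its part in these differences was not tested.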

How the results depend on the processing

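Direction and call of the 10 genes held in 1102 of 1170 comparisons of a value with an alternative. Calls were gained in 18 and lost in 6, and the sign turned in 44, none of them a called change. Members called were 7 to 8 in SH2 RNA, 6 to 7 in SH3 RNA, 4 to 6 in SH2 footprints and 4 to 5 in SH3 footprints. Calls over all genes moved too, from 6893 to 8362, 5661 to 7396, 3727 to 5129 and 2645 to 4269 in the same order. Between the hairpins, footprints gave 5 members instead of 3 when only the groups compared were fitted. Over all genes, footprint calls between the hairpins ran from 1541 to 3019 in the alternatives, beside 2459 in the main fit. In SH2 efficiency, DESeq2's Wald test gave 1 member and thinned footprints 1 instead of 0, CDK2 in each.

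With replicate number as a replicate block, CCND3 was called lower in SH3 RNA (-0.23, adjusted p = 0.0381 in edgeR) and SH3 footprints (-0.37, 0.0381), and CCNA2 footprints between the hairpins (0.61, 0.0304). The block changed no call of the 10 genes for SH2 against SC. Over all genes, efficiency calls in SH2 went from 489 to 191 with a block for each treatment and number over IN and RPF. The labels do not state that pairing, and IN and RPF of replicates 1 and 2 deviated oppositely in SC and SH2 (r = -0.49 to -0.30). The fall to 191 therefore does not measure how robust the calls are. SH2 efficiency calls were 910 by DESeq2, 282 thinned, 184 with only the groups compared and 813 with a block by number within each kind for SH2 and SC alone. In SH3 efficiency calls went from 86 to 23 with the block over IN and RPF, 349 by DESeq2 and 46 with only the groups compared. Between the hairpins they went from 2 to 0, 219 and 36 in the same order, and 35 with no filter. With each replicate left out they were 110 to 555, 10 to 244 and 0 to 1. Footprint calls between the hairpins fell from 2459 to 1541 without SH3 replicate 2.

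Plain library totals moved the median of all genes to 0.11 in SH2 RNA and 0.12 in SH3 RNA, and the share of called genes that were higher from 50.6% to 58.1% and from 52.4% to 61.5%. In SH3 footprints that share went from 47.1% to 55.0%, between the hairpins from 51.1% to 41.9%, and in SH2 efficiency from 37.0% to 21.3%. Signs then turned for CDK4 in SH2 RNA (0.046), SH3 footprints (0.042) and SH2 efficiency (-0.00098), RB1 in SH3 footprints (0.037), and CDK6 (-0.0016) and CDKN1A (-0.0051) in SH3 efficiency. CCNE1 footprints in SH2 turned to 0.0042 with DESeq2 size factors, 0.0018 with only the groups compared and 0.013 with the block. Thinned footprints turned CDK4 to -8.6e-05 in SH2, 0.030 in SH3 and -0.030 between the hairpins, and CCNE1 efficiency in SH3 to 0.0022, and gave a call for RB1 footprints in SH2 (-0.41, adjusted p = 0.0428).

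Leaving out a replicate turned signs in these ranges. Efficiency in SH2: CCNA2 -0.17 to 0.47, CCND2 -0.11 to 0.28, CCND3 -0.35 to 0.062. Efficiency in SH3: CCNA2 -0.29 to 0.19, CCND1 -0.13 to 0.079, CCND3 -0.33 to 0.031, CCNE1 -0.26 to 0.17, CDK6 -0.11 to 0.21, CDKN1A -0.23 to 0.23. Efficiency between the hairpins: CCNA2 -0.088 to 0.55, CCND3 -0.17 to 0.18, CCNE2 -0.097 to 0.31. Footprints: CCNE1 in SH2 -0.080 to 0.081, CDK4 in SH2 -0.017 to 0.096, CDK4 in SH3 -0.11 to 0.059, RB1 in SH3 -0.10 to 0.076, and between the hairpins CDK2 -0.19 to 0.00096 and CDK4 -0.016 to 0.15. RNA: CDK4 in SH2 -0.15 to 0.045. Levels per kilobase were not run, since no transcript lengths were at hand, and footprint depth limits CCNE1 and CCNE2 most.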

Other observations

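Genes around the G1/S switch that differed between the hairpins were looked for after their values were seen. MCM7, a subunit of the replicative helicase, had a log2 RNA change of -2.13 in SH2 (called) and -0.13 in SH3 (not called), and -2.31 and -0.22 in footprints. The hairpins differed in MCM7 by -2.0 in RNA and -2.09 in footprints (edgeR adjusted p = 2.16e-07 and 3.82e-06). E2F5 and E2F6, which encode E2F factors known as repressors, fell in SH2 RNA by 0.31 and 0.62 and rose in SH3 RNA by 0.77 and 0.49. E2F5 differed between the hairpins by -1.08 and E2F6 by -1.10 in RNA (edgeR adjusted p = 6.65e-06 and 1.03e-05). CUL1, the scaffold of SCF ubiquitin ligases, fell in SH3 RNA by 0.51 and in SH3 footprints by 0.82, and was 0.22 and 0.04 higher in SH2, neither called.

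In the authors' deposited table, 8 and 6 of the 10 genes are called in RNA and 5 and 4 in footprints, in SH2 and SH3. The share of all genes called there was not worked out. In the tests made here it was 61.4% and 53.0% in RNA and 44.2% and 35.9% in footprints. For all 10 genes in each of these RNA and footprint comparisons the call was the one made here. Both sets of calls rest on the same counts, so this is no independent check. The authors' deposited table also gives a measure named RD for each hairpin. Its log2 values are identical for SH2 and SH3 in 17017 of 17017 genes. For the 10 genes, the largest gap between RD and the efficiency change computed here was 0.545 for SH2 and 0.0141 for SH3, and RD was not used. The RD adjusted p of CDK2 in the authors' DESeq2 output is 0.0273 under both hairpins, so it cannot be assigned to either. The edgeR test called no efficiency change of CDK2 here, while DESeq2's Wald test called it in SH2 (adjusted p = 0.0133).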
